A study of Caenorhabditis elegans with 4 samples.

Results

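The regions described here are the 376 peaks that the series-level peak list placed on chromosome II of Caenorhabditis elegans, of 2193 peaks in that list (2191 of them on the nuclear chromosomes). They were chosen by chromosome alone, and no score or replicate entered the choice. The list comes from chromatin immunoprecipitation with sequencing (ChIP-seq) for HIM-5, done with an affinity-purified rabbit polyclonal antibody. The 4 samples were 2 ChIP replicates and 2 input DNA samples, and all were young adult hermaphrodites with a germ line, genotype fem-2(b245)III, kept at 20 °C. All samples carried the fem-2 mutation, and none was labelled as lacking HIM-5. The growth protocol in the labels speaks of gravid adults, which differs from the stage label. The labels do not tell if the ChIP replicates were separate cultures, so their spread may be technical. The replicate lists held 131 peaks on chromosome II in replicate 1 and 171 in replicate 2, a mean of 151 ± 28.3 (SD, n = 2).

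HIM-5 is known for promoting meiotic double-strand breaks, the breaks that start recombination, above all on the X chromosome, so that loss of HIM-5 leads to missing X crossovers and to male offspring. Chromosome II is an autosome. Worm autosomes have a gene-rich centre where crossovers are rare, flanked by arms that are richer in repeats and recombine more, and they attach to the spindle along their whole length rather than at a single centromere. FEM-2 is a phosphatase of the sex determination pathway that promotes male fate, sperm included, and b245 is known as a temperature-sensitive allele.

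A peak here is an interval that the authors' peak calling marked in WS220 coordinates, with MACS for each replicate list and MACS v2 for the series list. Its score is a number from the caller of its list, deposited without a scale. Scores were therefore compared only among peaks of the same list, or by rank. How many reads lay behind any peak is unknown, so a peak missing from a list was not called, which is not the same as unbound. All shares are given with exact Clopper-Pearson 95% intervals. They cover counting error only and take each peak as a separate draw, although neighbouring peaks may share a source. With 1 group of ChIP samples there was no contrast to test, and the comparisons below are descriptions. The genes at these positions are not named, since the available gene table follows another assembly.

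The series peaks on chromosome II were crowded in the middle and thin on the left, with the right close to an even share. The chromosome was measured from position 1 to 15279368, where the last peak of the 3 lists ended, and cut into 3 equal parts, left, middle and right. The left one (1 to 5093122) held 73 series peaks, or 19.4% of the 376 (15.5% to 23.8%). The middle one (5093123 to 10186245) held 171, or 45.5% (40.4% to 50.7%), and the right one (10186246 to 15279368) held 132, or 35.1% (30.3% to 40.2%). An even spread by length would put 33.3% in each. In peaks per Mb these were 14.3, 33.6 and 25.9, against 24.6 over the whole span.

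Both replicate lists had their fewest peaks on the left. Replicate 1 placed 23 of its 131 peaks there (17.6%, 11.5% to 25.2%) and replicate 2 placed 27 of 171 (15.8%, 10.7% to 22.1%), a mean of 16.7% ± 1.25 (SD, n = 2). The replicates differed in how the rest was divided. Replicate 1 had 54 peaks in the middle and 54 on the right, 41.2% each, while replicate 2 had 84 in the middle (49.1%) and 60 on the right (35.1%). In replicate 2 and the series list the middle exceeded the right, and in replicate 1 they were equal.

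On the other 5 chromosomes the left share of series peaks lay between 26.9% on chromosome IV and 33.8% on X. In replicate 1 it ran from 19.2% on IV to 50.8% on X, and in replicate 2 from 23.2% on IV to 33.3% on X. Chromosome II had the lowest left share of the 6 in each of the 3 lists. In replicate 1 the value for IV lay inside the interval for chromosome II (11.5% to 25.2%). Elsewhere the middle share of series peaks was 32.7% (I) to 44.5% (V). These differences between chromosomes were not tested, and the series list may share reads with the replicate lists.

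In blocks of 1 Mb, the sparse stretch covered the first 4 blocks. They made up 26.2% of the span and held 44 series peaks (11.7%), 16 replicate 1 peaks and 17 replicate 2 peaks, with 4 series peaks in both replicate lists. Their counts were 10, 17, 7 and 10 series peaks. The block from 1 Mb was not sparse throughout. It held 11 of these replicate 2 peaks, and its 17 series peaks exceeded the 16 in the blocks from 6 and 12 Mb. The series count was 28 in the block from 4 Mb and 38 in the block from 5 Mb, and 16 in the block from 6 Mb. The densest block ran from 9 to 10 Mb, with 58 series peaks, 22 of replicate 1 and 25 of replicate 2. It held 15.4%, 16.8% and 14.6% of the chromosome's peaks in the 3 lists. It stayed the densest in the series list with runs of neighbouring peaks left out, at 36.

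The block from 10 Mb had 38 series peaks, followed by 18 and 16 in the next pair. At the right end the count was 30 in the block from 13 Mb, and 25.8 per Mb over the last 1.28 Mb. Peaks of the replicates per block had a Pearson r of 0.771 and a Spearman rho of 0.646 over the 15 blocks, which are neighbouring stretches of 1 chromosome. The widest departure lay between 7 and 8 Mb, where replicate 1 had 2 peaks and replicate 2 had 14. Of the 28 series peaks there, 1 was in both replicate lists, 11 were in replicate 2 only and none in replicate 1 only. By contrast, 7 of 16 series peaks between 6 and 7 Mb were in both lists (43.8%) and only 3 were in neither.

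**Figure D1:**
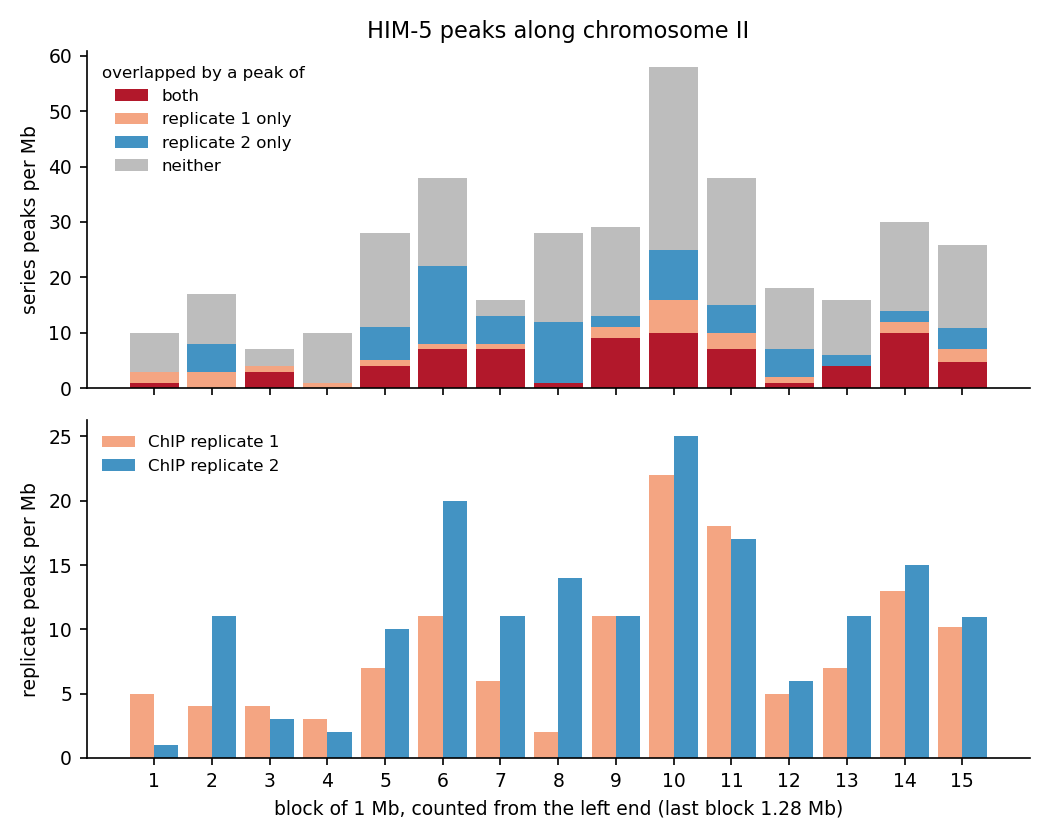
Peaks per Mb (vertical axes) in the 15 blocks of chromosome II (horizontal axis, counted from the left end). The upper panel stacks the series peaks by the replicate lists that overlap them, and the lower panel gives each ChIP replicate. The first 4 blocks hold 7 to 17 series peaks per Mb and the block from 9 Mb holds 58, with 22 and 25 peaks in the replicates.

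Each series peak was then marked by whether a peak of either ChIP replicate overlapped it by at least 1 bp. Of the 376, 70 were overlapped in both replicate lists (18.6%, 14.8% to 22.9%), 27 in replicate 1 only (7.18%), 71 in replicate 2 only (18.9%) and 208 in neither (55.3%, 50.1% to 60.4%). The lowest chromosome II scores were 50.15 in replicate 1, 50.28 in replicate 2 and 1.33 in the series list, on scales not given. Whether differing cut-offs of the lists set these classes was not tested. Over all nuclear series peaks, 22.4% were in both lists and 48.8% in neither. The first of these lay inside the interval for chromosome II, and the second lay just below it. Counted whatever the other list held, replicate 1 overlapped 97 peaks (25.8%, 21.4% to 30.5%), where the nuclear list gave 33.5%, and replicate 2 overlapped 141 (37.5%, 32.6% to 42.6%), where it gave 40.1%. The nuclear values include chromosome II itself, and these differences were not tested.

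The share in both lists was lower on the left, where 8 of 73 peaks were in both (11.0%, 4.85% to 20.5%), than in the middle, with 36 of 171 (21.1%, 15.2% to 27.9%), and on the right, with 26 of 132 (19.7%, 13.3% to 27.5%). The 3 intervals overlap. Peaks in neither list made up 63.0%, 48.5% and 59.8% of the left, middle and right peaks. The median series scores of the left, middle and right peaks were 5.31, 5.70 and 4.84, and their median widths 308, 279 and 257.5 bp. Bases covered came to 32.3 kb on the left, 84.3 kb in the middle and 72.7 kb on the right.

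Read from the replicate side, the series list took in nearly all of their peaks. It overlapped 123 of 131 replicate 1 peaks (93.9%, 88.3% to 97.3%; 87.6% over the nuclear chromosomes) and 154 of 171 replicate 2 peaks (90.1%, 84.6% to 94.1%; 90.6%). Between the replicates, 83 of the 131 replicate 1 peaks overlapped replicate 2 (63.4%, 54.5% to 71.6%), and 75 of the 171 replicate 2 peaks overlapped replicate 1 (43.9%, 36.3% to 51.6%). The nuclear values were 59.8% and 49.8%, each within the interval for chromosome II. The shared replicate 1 peaks were 432 bp wide at the median, with a median score of 229, and the unshared ones 211 bp, with 69.8. In replicate 2 the shared peaks were 536 bp wide with a median score of 206, and the unshared ones 268.5 bp with 80.0. In base pairs the replicates shared 58.0 kb, or 44.7% of the bases that either covered, and the series list covered 92.1% of that shared part.

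The few replicate peaks outside the series list included sites seen in both replicates. Of the 8 such peaks of replicate 1 and the 17 of replicate 2, 3 in each list overlapped the other replicate. A peak at 3290586 to 3290814 had a replicate 1 score of 207 and met a replicate 2 peak at 3290645 to 3290855 with a score of 104. A peak at 13650012 to 13650199 had a replicate 1 score of 85.5 and met one at 13650057 to 13650179 with a replicate 2 score of 110. The replicate 1 peak at 3994603 to 3994817, score 229, was the highest of that list outside the series list and also met a replicate 2 peak. Other peaks outside the series list were called in 1 replicate only. In replicate 1 such peaks lay at 632664 to 632851 (score 95.5) and 12749677 to 12749935 (77.5). In replicate 2 they lay at 9162811 to 9163037 (score 88.9), 13828412 to 13828628 (87.7) and 9746035 to 9746314 (76.5).

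Replicate overlap went with series score. The 25 peaks with the highest series score on the chromosome included 23 in both lists (92.0%, 74.0% to 99.0%), and ranks 26 to 50 included 20 (80.0%, 59.3% to 93.2%). The share was 34.0% for ranks 51 to 100, 5.00% for ranks 101 to 200 and 2.84% for ranks 201 to 376. None of the first 50 was in neither list, while 145 of the last 176 were (82.4%). Over all nuclear series peaks, of any rank, 22.4% were in both lists and 48.8% in neither. Median widths in these rank groups, from first to last, were 1067, 1042, 469.5, 304 and 202 bp. A wider peak meets an overlap rule of 1 bp more easily. The series list may have been called on the same reads as the replicate lists, in which case this relation is built in.

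**Figure D2:**
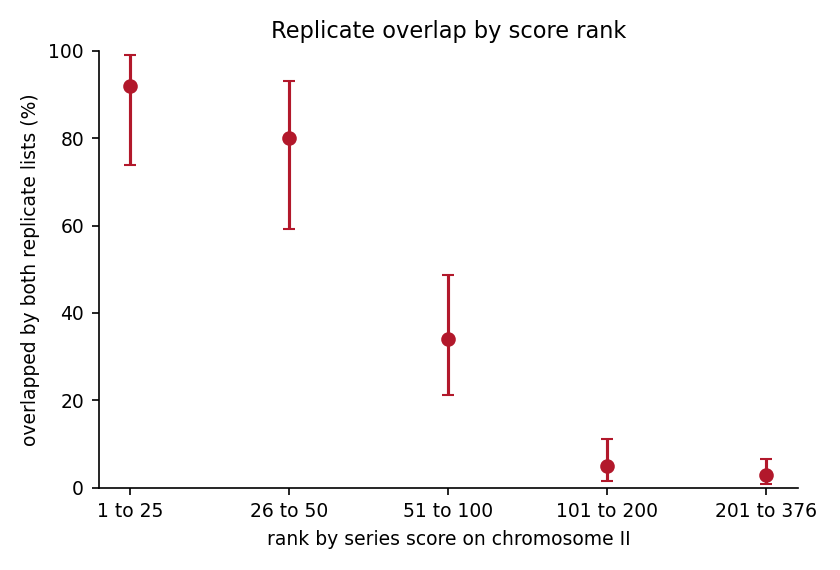
Share of chromosome II series peaks overlapped by both ChIP replicate lists (vertical axis, %) by rank of series score (horizontal axis). Points are shares and bars are exact 95% intervals of counting error; the share is 92.0% in ranks 1 to 25 and 2.84% in ranks 201 to 376.

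Most of the peaks were narrow, and a few wide ones carried much of the covered length. The median width was 279.5 bp (quartiles 191 and 459 bp, range 146 to 7265 bp), against medians of 271 to 338 bp on the other chromosomes. Series peaks covered 189 kb, or 1.24% of the span, while replicate 1 covered 77.9 kb and replicate 2 covered 110 kb. The 70 doubly overlapped peaks had a median width of 809.5 bp and made up 48.6% of the covered bases. Peaks in neither list had a median width of 210.5 bp, never exceeded 903 bp, and made up 27.6%. The 15 peaks of 2 kb or more held 27.6% of the covered bases, and 14 of them were in both lists (93.3%, 68.1% to 99.8%; 95.7% over all nuclear series peaks of that width). Wide peaks meet an overlap rule of 1 bp more easily.

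Across the 376 peaks, log10 width and log10 score had a Pearson r of 0.680 and a Spearman rho of 0.659, over peaks of 1 list. The median series score was 5.31 (quartiles 3.70 and 8.89), and the range was 1.33 to 133.4. That median was 16.9 for peaks in both lists, 7.05 for those in replicate 2 only, 6.07 for those in replicate 1 only and 4.14 for those in neither, with no score above 9.45 in the last set. Among the 70 peaks in both lists, series score followed replicate 2 more closely (Spearman rho 0.767) than replicate 1 (0.479), and the replicates with each other had a rho of 0.50. Some of the 70 met the same replicate peak, so that its score entered more than once. One case was a replicate 1 peak of score 3100 that met the series peaks from 8288505 to 8292699. These correlations are descriptions over peaks that share chromatin and perhaps reads.

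**Figure D3:**
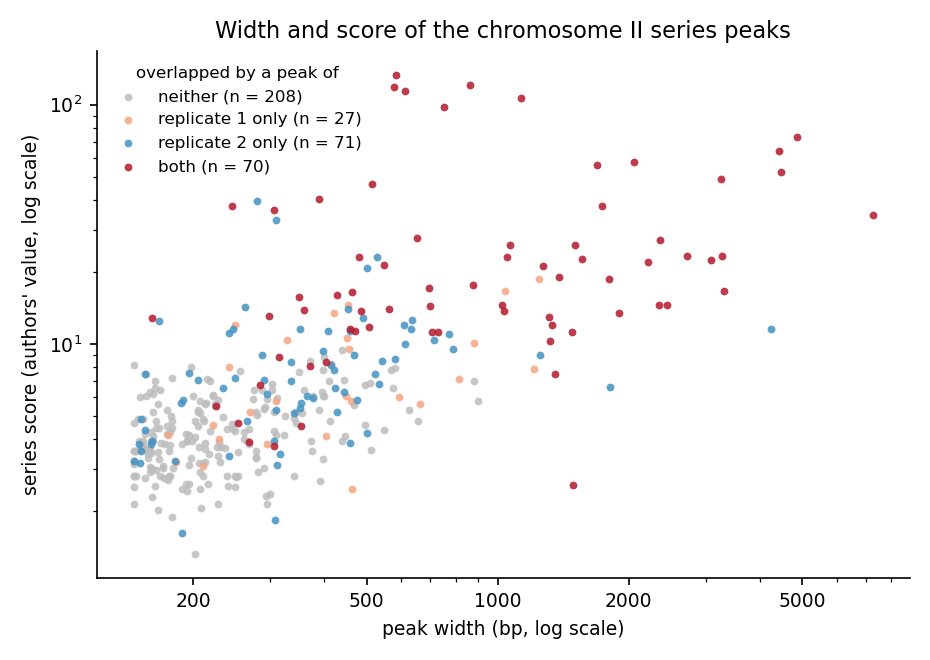
Width (horizontal axis, bp, log scale) and series score (vertical axis, the authors' value, log scale) of the 376 chromosome II series peaks, 1 point each, coloured by the replicate lists that overlap them. Peaks in neither list stay at or below a score of 9.45 and a width of 903 bp, and the 6 highest points, between 579 and 1133 bp wide, are those of a single run.

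The 6 highest-scoring peaks of the chromosome stood side by side in the right part, inside a run of 8 series peaks from 13817711 to 13829547. From left to right they were 13817711 to 13818463 (series score 97.7), 13819658 to 13820240 (133.4), 13821061 to 13821926 (120.3), 13823096 to 13823707 (114), 13825031 to 13825609 (119) and 13826520 to 13827652 (107). They ranked 11, 14, 15, 16, 17 and 20 in the whole nuclear series list, and the next peak of the chromosome stood at rank 32. Midpoints of these 6 peaks were 1544.5 to 1918.5 bp apart in the series list, 1718 to 1958 bp in replicate 1 and 1622.5 to 1896 bp in replicate 2. Each of the 6 was a separate peak in both replicates, with midpoints at most 166 bp from that of the series peak. The other members of the run, at 13822703 to 13822862 and 13829242 to 13829547, had series scores of 3.52 and 5.20 and were in neither list.

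The replicates placed these 6 peaks differently in their own orders. In replicate 1 their scores were 209 to 373 and their ranks 21 to 49 of 131 chromosome II peaks. In replicate 2 their scores were 1378 to 1667 and their ranks 9 to 16 of 171. The highest series scores of the chromosome were thus not the highest in either replicate, and the ranks in replicate 1 did not overlap those in replicate 2.

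**Figure D4:**
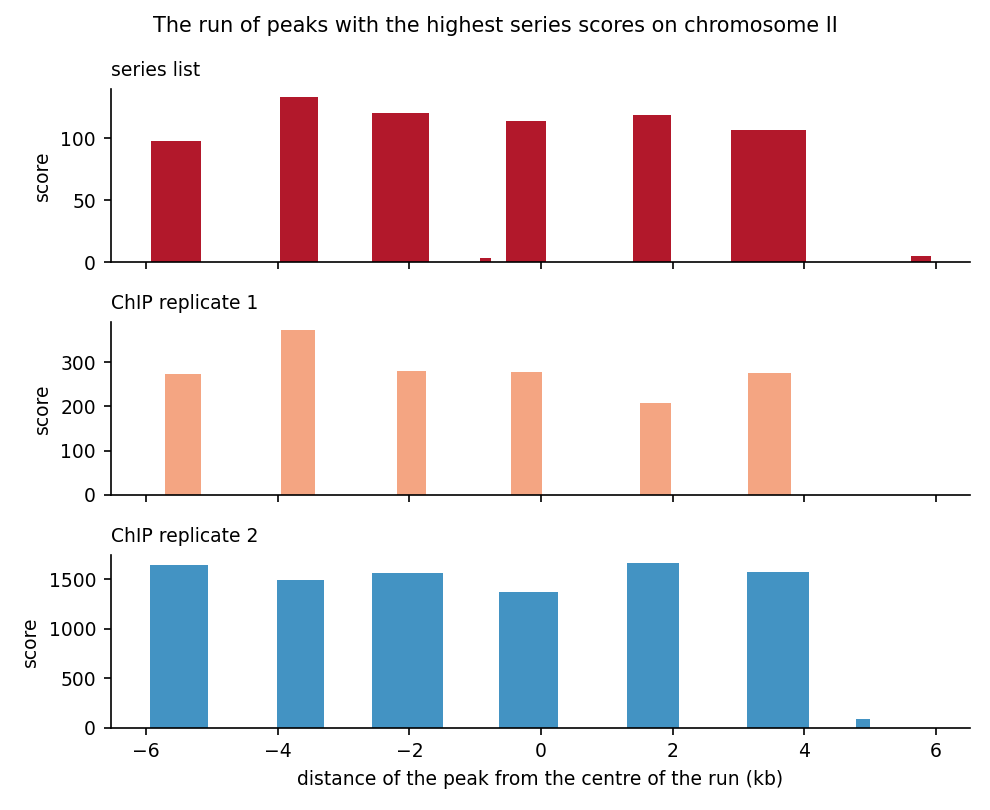
Score (vertical axes, the authors' value, a separate scale for each list) of the peaks in the run from 13817711 to 13829547, by distance from its centre (horizontal axis, kb). Bars span each peak's width; 6 evenly spaced peaks appear in the series list and both replicates, and the small bars are peaks without a partner in the other lists.

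The other peaks among the 15 highest lay scattered over the middle and right, and none was in the left part of the chromosome. In all, 7 of the 15 were in the middle and 8 on the right, 14 were in both lists, and 5 were 2 kb or wider. The peak at 12052173 to 12057029 (4857 bp, series score 73.1) met 4 peaks in each replicate, with a highest score of 3100 in both. The peak at 8743201 to 8747625 (4425 bp, series score 64.3) met 1 peak in each, again at 3100 in both, and its midpoint lay within 44 bp of theirs. A score of exactly 3100 was the highest of replicate 1 on this chromosome and was shared by 4 peaks there and 4 in replicate 2. Only these 2 sites had it in both.

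At the remaining high sites the replicates differed in rank. The peak at 6346607 to 6348660 (series score 57.6) had a replicate 1 score of 2704 and a replicate 2 score of 3100. The peak at 8819345 to 8821036 (56.2) had 2322 in replicate 1, rank 6, and 932 in replicate 2, rank 19. The peak at 11149601 to 11154060 (4460 bp, 52.2) was met by 4 peaks of replicate 1, the highest at 1177, and by 1 of replicate 2 at 3100. The peak at 6888176 to 6891432 (3257 bp, 49.0) had 3100 in replicate 1 and 1591 in replicate 2. At these sites neither replicate was uniformly the higher-ranked one.

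Narrow peaks with high series scores stood further down the replicate lists. The peak at 5660940 to 5661454 (515 bp, series score 46.7) ranked 22 in replicate 1 and 24 in replicate 2. The peak at 10033433 to 10033821 (389 bp, 40.4) ranked 72 in replicate 1, with a score of 97.8, and 35 in replicate 2, with 369. It had a neighbour of like size at 10034650 to 10034956 (307 bp, series score 36.3), also in both lists. The peak at 5346440 to 5346719 (280 bp, 39.8) was the only one of the 15 missing from a replicate list. It was in replicate 2 at a score of 314, rank 40, and not called in replicate 1.

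The widest peak of the chromosome, 10541741 to 10549005 (7265 bp), ranked 19 by series score at 34.5. It met 6 peaks of replicate 1, the highest at 1377, and 3 of replicate 2, the highest at 3123.93, which was the only chromosome II score above 3100. The peak at 1141510 to 1145747 (4238 bp, series score 11.5) was the 1 wide peak outside the shared set, with 4 replicate 2 peaks up to 973 and none of replicate 1. Of the 15 wide peaks, 10 met more than 1 peak of replicate 1 and 10 more than 1 peak of replicate 2. Single wide intervals of the series list thus often stood for several replicate intervals. The reverse occurred too. The replicate 1 peak at 8288382 to 8292786 (score 3100) spanned series peaks at 8288505 to 8289773, 8289898 to 8290964 and 8291138 to 8292699. Such splitting adds to the series peak count and to its short gaps.

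On the left, where none of the 15 lay, the highest-scoring peak was the one at the chromosome end. It spanned 1 to 246 with a series score of 37.7, rank 17 on the chromosome, and met peaks at 2 to 405 in replicate 1 (score 626) and 1 to 426 in replicate 2 (460). The next series peak began at 255222, had a score of 6.17 and was in neither list. Every other nuclear chromosome also had a series peak starting at position 1, with series scores from 3.34 (IV) to 47.5 (I). A peak at the first base was therefore not particular to chromosome II. Further leading peaks of the left blocks were 1140885 to 1141413 (series score 23.1, in replicate 2 only), 2003339 to 2003808 (11.3, both lists), 3161963 to 3162362 (6.09, neither list) and 4641180 to 4642228 (23.1, both lists, with a replicate 1 score of 1199). In the block from 3 Mb no series peak was in both lists, and 9 of 10 were in neither.

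At the right end the series list closed with a peak at 15279029 to 15279368 (series score 4.89) that was in neither replicate list and that itself set the measured span. The last replicate peaks ended at 15044068 in replicate 1 and 15044055 in replicate 2. They lay in the series peak at 15041725 to 15044077 (2353 bp, series score 27.3), which met 3 peaks in each replicate, up to 1190 in replicate 1 and 378 in replicate 2.

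Spacing along the chromosome was uneven. The median gap between neighbouring series peaks was 1281 bp, with quartiles of 303 and 47522 bp, and 203 of 375 gaps were under 2 kb (54.1%), while 39 exceeded 100 kb. On the other chromosomes 35.3% to 52.2% of gaps were under 2 kb. The median gap was 3112 bp in replicate 1 and 3084 bp in replicate 2. Joining peaks less than 10 kb apart gave 152 sites, a median of 2 peaks per site. Of these sites, 75 held a single peak, 66 held 2 to 5, and 11 held 6 or more.

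Sites of a single peak had a peak in both replicate lists in 9 of 75 cases (12.0%, 5.64% to 21.6%). Those of 2 to 5 peaks did in 25 of 66 (37.9%, 26.2% to 50.7%) and those of 6 or more in 6 of 11 (54.5%, 23.4% to 83.3%). A site with more peaks has more chances to hold one. In 66 of the 152 sites no peak of either replicate was found.

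The longest stretches without a series peak ran from 3168418 to 3796587 (628 kb), 2003809 to 2570295 (566 kb), 12225079 to 12738407 (513 kb), 11154061 to 11635020 (481 kb) and 5844960 to 6296787 (452 kb). The first held 1 peak of each replicate, the second 1 of replicate 1, the third 1 of replicate 2, the fourth none and the fifth 1 of replicate 1. The stretches were picked for having no series peak. The series list overlapped 123 of 131 replicate 1 peaks and 154 of 171 replicate 2 peaks, so few replicate peaks could lie in them.

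Runs were defined as 6 or more neighbouring series peaks with every gap under 2 kb. Chromosome II had 8 runs with 82 peaks, 21.8% of its series peaks (17.7% to 26.3%), and the other chromosomes 9.58% to 24.2%. Of the run peaks, 10 were in both replicate lists (12.2%) and 49 in neither (59.8%). Outside runs, 60 of 294 were in both (20.4%) and 159 in neither (54.1%). The median series score was 5.20 in runs and 5.48 outside them.

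The runs fell into unlike kinds. The run with the most peaks, from 9808537 to 9824244 in the densest block, had 22 with a median gap of 459 bp and no series score above 8.65. None of its peaks was in both lists, 6 met replicate 1 only, 2 met replicate 2 only, and the replicate peaks there scored at most 113 and 59.3. The runs from 3161963 to 3168417 (7 peaks) and from 10513554 to 10520198 (10 peaks) had no peak in either replicate list and series scores of at most 6.09 and 7.02. In these 3 runs the series list marked many low-scoring intervals that the replicate lists left out or split between them.

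In 3 other runs most of the overlapped peaks met 1 replicate only. The run from 1450876 to 1457562 had 6 peaks, 3 of them in replicate 1 only and none in replicate 2. The run from 4747905 to 4751875 had 7 peaks, 2 in replicate 2 only and none in replicate 1. It ended in the peak with the highest series score of those in neither list, 4751438 to 4751875 at 9.45. The run from 5330045 to 5340792 had 12 peaks, 6 in replicate 2 only and 1 in both, with a highest series score of 14.4. Shortly to its right stood 3 more peaks, at 5346440 to 5346719 (series score 39.8, replicate 2 only), 5347173 to 5347470 (13.2, in both lists) and 5350297 to 5350606 (33.1, replicate 2 only).

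The other 2 runs each had 3 or more peaks in both lists. The run from 10541741 to 10557550 began with the 7265 bp peak and had 10 peaks, 3 in both lists and 3 in neither. It covered 67.6% of its own length and met 9 replicate 1 peaks and 7 replicate 2 peaks. It also held the lowest-scoring series peak found in both lists, 10556064 to 10557550 (1487 bp, series score 2.59). The run from 13817711 to 13829547, described above, had 6 of 8 peaks in both lists and a median series score of 110.5, against medians of 3.63 to 7.02 in the other 7 runs.

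At the edges of the classes, low series scores and replicate overlap did occur together. After the peak at 2.59, the lowest series scores of peaks in both lists were 3.74 at 6507319 to 6507625, 3.89 at 8287565 to 8287832, 4.56 at 9631927 to 9632280 and 4.68 at 6506389 to 6506641. The peaks at 6506389 and 6507319 each met 1 peak per replicate, with the same scores, 135.4 in replicate 1 and 167.7 in replicate 2. The series peak between them, 6506716 to 6506940 (series score 5.51), had these values as well. They very likely met the same replicate peaks and are not separate cases. In the other direction, the highest series scores in neither list after 9.45 were 8.83 at 7394178 to 7394577, 8.50 at 9419479 to 9419849, 8.18 at 10935394 to 10935539 and 8.0 at 13669040 to 13669237. The classes therefore overlapped in series score between 2.59 and 9.45.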

How the data were processed

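HIM-5 ChIP-seq was done on 2 ChIP and 2 input samples. Per the labels' protocols, worms were frozen, ground, cross-linked with EGS for 20 minutes and with EGS and formaldehyde for another 10, and sonicated. Reads were aligned with BWA to ce10, per the submitters' processing notes, and per the file headers the coordinates are WS220. The authors deposited peak lists with a position and a score for each peak, called with MACS for each replicate and with MACS v2 for the series list, per the files. No source used here gives the settings, the scale of the score, the reads behind the series list or the read depth. The input samples were not analysed here.

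Peaks on chromosome II were taken by name and coordinates used as deposited. Overlaps (at least 1 bp), runs, merged sites (gaps under 10 kb), 3 equal parts of the span, blocks of 1 Mb (a remainder below 500 kb was added to its neighbour) and exact 95% intervals were computed in Python 3.11.15 with pandas 2.3.3, numpy 2.4.6 and scipy 1.17.1, and tested on simulated data. A midpoint set the part or block of a peak. Named sites were the 15 highest series scores, the 5 widest peaks, all runs, the first and last peaks, the 5 longest empty stretches, the 5 highest peaks in neither list, the 5 lowest in both and the 5 highest of each replicate outside the series list. Leading peaks of blocks and neighbours of named peaks were named after their values were seen. The members and rules were chosen with earlier results of these data known. Gene annotation, sequence and base composition were not run, since no genome of the WS220 build was at hand.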

Additional observations from a re-analysis of the deposited data

How the results depend on the processing

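Of 48 alternatives to 9 results, 13 moved by less than the counting interval or, for a density, by at most 1.5 times. The middle share, 45.5%, stayed within its interval for the higher-scoring 50% of peaks, base pairs covered, merged peaks, runs left out and each replicate list alone (41.2% to 49.1%). It was 51.4% in series peaks of both lists, and the middle 50% of the span held 64.4%. When each peak had to be covered to 50% or more by the other, the rule put 9.84% of series peaks in both lists and 71.8% in neither, left 36.6% of replicate 1 peaks overlapped by replicate 2 and left 28.1% of replicate 2 peaks overlapped by replicate 1. Midpoints within 200 bp gave 10.6%, 62.8%, 42.7% and 32.2% for these in turn. In the higher-scoring 50% of peaks they were 34.4%, 29.1%, 84.8% and 61.6%, the density was 12.4 per Mb, the share in runs 6.35% and the median width 444 bp. Merging gave 27.6% in both, 43.4% in neither and 9.95 sites per Mb. With 1 replicate left out, the share in the remaining list was 25.8% to 37.5% and the share missing from it 62.5% to 74.2%. The replicate lists alone had 8.57 to 11.2 peaks per Mb, 11.1% to 13.7% in runs and median widths of 301 to 314 bp. Series peaks in both lists gave 4.58 per Mb, 8.57% in runs, a median width of 809.5 bp and a median score of 16.9. The share in runs was 13.6% with gaps under 1 kb and 39.9% with 4 or more peaks. Stricter rules leave fewer peaks by construction; other causes were not tested. Bases covered were not run as a density alternative, since they have another unit. No paired analysis was possible because only the ChIP samples entered any comparison. Unknown depth limits what a missing peak shows.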
